A study of Homo sapiens with 5 samples.

Results

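SPAAR, SLC17A2, ZDHHC15, AFF3, ZNF736, PDZRN4, KCTD12, SLC23A1, ZSCAN31 and PTX4 are 10 protein-coding genes, of 58812 gene IDs counted, that were noted for a change in one of a pair of HOXB13 mutant clones of a prostate cancer line. The genes were selected on their own counts in these same libraries, C4K13A or C5K13A against parental, so their differences between groups are given as description. The calls that the test over all genes made on them are counted once below and support nothing. C4-2B is a castration-resistant human prostate cancer line derived from LNCaP, and HOXB13 is a homeodomain protein that marks prostate epithelium and works with the androgen receptor. The study's question was which genes respond to acetylation of HOXB13 at lysine 13, which K13A turns into alanine. RNA was sequenced from 2 libraries of the K13A clone C4K13A, 1 library of the K13A clone C5K13A and 2 libraries of parental C4-2B cells, all grown in the same C4-2B medium. Each mutant is a single clone. A difference seen in 1 clone therefore cannot be told apart from any other property of the cells that clone was grown from, and C5K13A has no replicate check.

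The 10 genes belong to separate pathways. SPAAR is a small lysosomal polypeptide, first annotated as a noncoding transcript, that binds the vacuolar ATPase and restrains activation of the growth kinase complex mTORC1 by amino acids. SLC17A2 is a phosphate and organic anion transporter, SLC23A1 the sodium-dependent ascorbate transporter of kidney and intestine, ZDHHC15 a palmitoyltransferase that adds lipid to proteins, and PDZRN4 a PDZ- and RING-domain protein related to the LNX ubiquitin ligases. AFF3 is a nuclear protein of the AF4/FMR2 family that acts in transcription elongation, ZNF736 a KRAB-type zinc finger gene, ZSCAN31 a SCAN-domain zinc finger gene, KCTD12 an auxiliary subunit of the GABA-B receptor and PTX4 a secreted pentraxin.

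Libraries held 43190276 to 57282373 counts and 27337 to 30647 genes with at least 1 count. HOXB13 stood at 345 and 346 CPM (counts scaled to a common library total with TMM factors) in C4K13A, 353 CPM in C5K13A, and 337 and 449 CPM in parental cells. Gene counts cannot show a single amino acid change, so this level does not check the clones' labels. All 10 luminal prostate markers were above 1 CPM in every library. Basal markers summed to between 0.0799 and 0.552 CPM, leukocyte markers to between 0.142 and 0.349 CPM, fibroblast markers to between 5.09 and 6.99 CPM and endothelial markers to between 3.25 and 6.29 CPM, with 1 of 5 above 1 CPM in every library in each of the last 2 lists. Residual mitochondrial ribosomal RNA differed widely, at 63.29 and 362.8 CPM in C4K13A, 671.4 CPM in C5K13A, and 27.95 and 1764 CPM in parental cells. Leaving out ribosomal, mitochondrial and small RNA genes moved no fold change of the 10 genes by more than the spread between replicates. The parental pair was the furthest apart of all pairs of libraries by a chi-square of their counts (145 per gene). Parental library 1 stood at 116 or more from every other library. The C4K13A pair stood at 45.8, C4K13A library 2 and C5K13A at 45.1, and C5K13A and parental library 2 at 47. By correlation of log2 CPM the parental pair was not the furthest apart. It stood at 0.971, and the lowest value was 0.956, for C4K13A library 2 and parental library 1. Without parental library 1 the log2 differences of the 10 genes from parental moved by at most 0.35, apart from SPAAR, SLC17A2 and PDZRN4, which rest on few reads.

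SPAAR, SLC17A2, ZDHHC15 and PDZRN4 were near 0 in at least 1 group and expressed in another, and the sequence at their RefSeq start is shown because CpG content at a start site is a property the choice of genes did not use. Each run covers 250 bases before to 50 bases after the start on GRCh38.p14, reads 5′ to 3′ on the gene's strand, and has CG dinucleotides in capitals. The windows are chr9:35909240-35909539 (plus strand) for SPAAR, chr6:25930642-25930941 (minus strand) for SLC17A2, chrX:75522988-75523287 (minus strand) for ZDHHC15 and chr12:41437489-41437788 (plus strand) for PDZRN4.
SPAAR: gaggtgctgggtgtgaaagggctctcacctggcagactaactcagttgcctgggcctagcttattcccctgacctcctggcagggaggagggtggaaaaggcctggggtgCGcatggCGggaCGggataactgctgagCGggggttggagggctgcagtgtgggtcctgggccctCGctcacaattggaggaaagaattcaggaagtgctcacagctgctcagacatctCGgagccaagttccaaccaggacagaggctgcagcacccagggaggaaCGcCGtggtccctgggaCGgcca
SLC17A2: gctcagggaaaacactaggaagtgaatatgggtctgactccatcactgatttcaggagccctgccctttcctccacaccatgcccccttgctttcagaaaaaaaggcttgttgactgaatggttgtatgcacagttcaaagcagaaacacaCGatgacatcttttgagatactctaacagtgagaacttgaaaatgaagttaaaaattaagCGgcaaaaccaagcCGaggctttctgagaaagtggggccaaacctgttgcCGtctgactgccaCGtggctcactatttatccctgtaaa
ZDHHC15: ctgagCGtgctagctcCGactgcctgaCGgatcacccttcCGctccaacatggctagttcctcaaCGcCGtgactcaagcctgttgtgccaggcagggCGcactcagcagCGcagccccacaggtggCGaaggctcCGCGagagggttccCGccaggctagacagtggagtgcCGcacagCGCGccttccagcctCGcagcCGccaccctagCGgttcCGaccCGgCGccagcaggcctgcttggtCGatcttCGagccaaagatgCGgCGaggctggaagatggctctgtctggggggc
PDZRN4: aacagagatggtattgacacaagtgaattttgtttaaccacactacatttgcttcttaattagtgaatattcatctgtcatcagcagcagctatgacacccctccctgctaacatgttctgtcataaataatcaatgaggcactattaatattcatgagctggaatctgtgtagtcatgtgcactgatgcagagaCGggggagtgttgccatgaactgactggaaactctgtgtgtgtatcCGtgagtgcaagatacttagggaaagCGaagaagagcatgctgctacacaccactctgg

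ZDHHC15 had 25 CG dinucleotides in its window, SPAAR 9, SLC17A2 5 and PDZRN4 3. A second SLC17A2 start held 1. The PDZRN4 window lies inside the longer gene body of the annotation, so it is the start of a shorter transcript. All 10 genes matched RefSeq starts, with 14 windows in all. The windows held 4 that were CpG-rich (GC above 50% and observed over expected CpG above 0.6), in ZDHHC15, KCTD12 with 41 CG dinucleotides, and ZSCAN31 with 16 and 15 in a pair of overlapping windows. Among 35116 RefSeq windows of the same length, 46.8% were CpG-rich and the median held 14 CG dinucleotides. The remaining windows held between 1 and 9 CG dinucleotides. Among them were every start of SPAAR and SLC17A2, highest in C5K13A, and of AFF3 and ZNF736, lowest there. Every start of PDZRN4, SLC23A1 and PTX4 was among them too. The letters CAATAAA, searched on both strands, were in 1 of the 14 windows, that second SLC17A2 start, against 4% of all windows. The letters TCGTAAA were in 0 of the 14, against 0.541% of all windows.

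**Figure D1:**
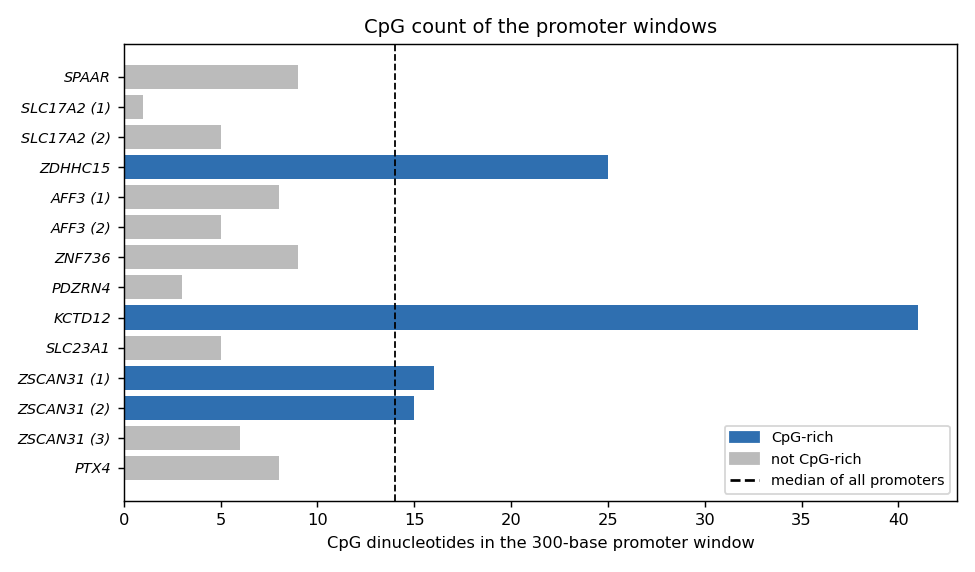
Number of CG dinucleotides in each RefSeq window (250 bases before to 50 after the start) of the 10 genes, CpG-rich windows in blue, with the median of all 35116 windows as a dashed line. KCTD12 reaches 41 and ZDHHC15 25, while all windows of SPAAR, SLC17A2, AFF3, ZNF736, PDZRN4, SLC23A1 and PTX4 hold 9 or fewer.

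The clone that departed from parental differed by gene. Departure was defined as a fitted change of at least 2-fold with every library of the clone outside the range of both parental libraries. The share of all genes that met this rule was not counted, so nothing is read from how many members met it. By this rule SPAAR, ZDHHC15, AFF3 and ZNF736 departed in C5K13A alone, and ZSCAN31 in C4K13A alone. PDZRN4 departed in both clones in opposite directions. SLC17A2 met the rule in both clones too, but in C4K13A only by a fitted value on 0 reads against 4, where the counts bound the difference at 1.13-fold, so only its C5K13A departure is read. KCTD12, SLC23A1 and PTX4 were higher in both clones than in parental cells, so the description "switched in 1 clone" did not hold for these 3 genes.

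**Figure D2:**
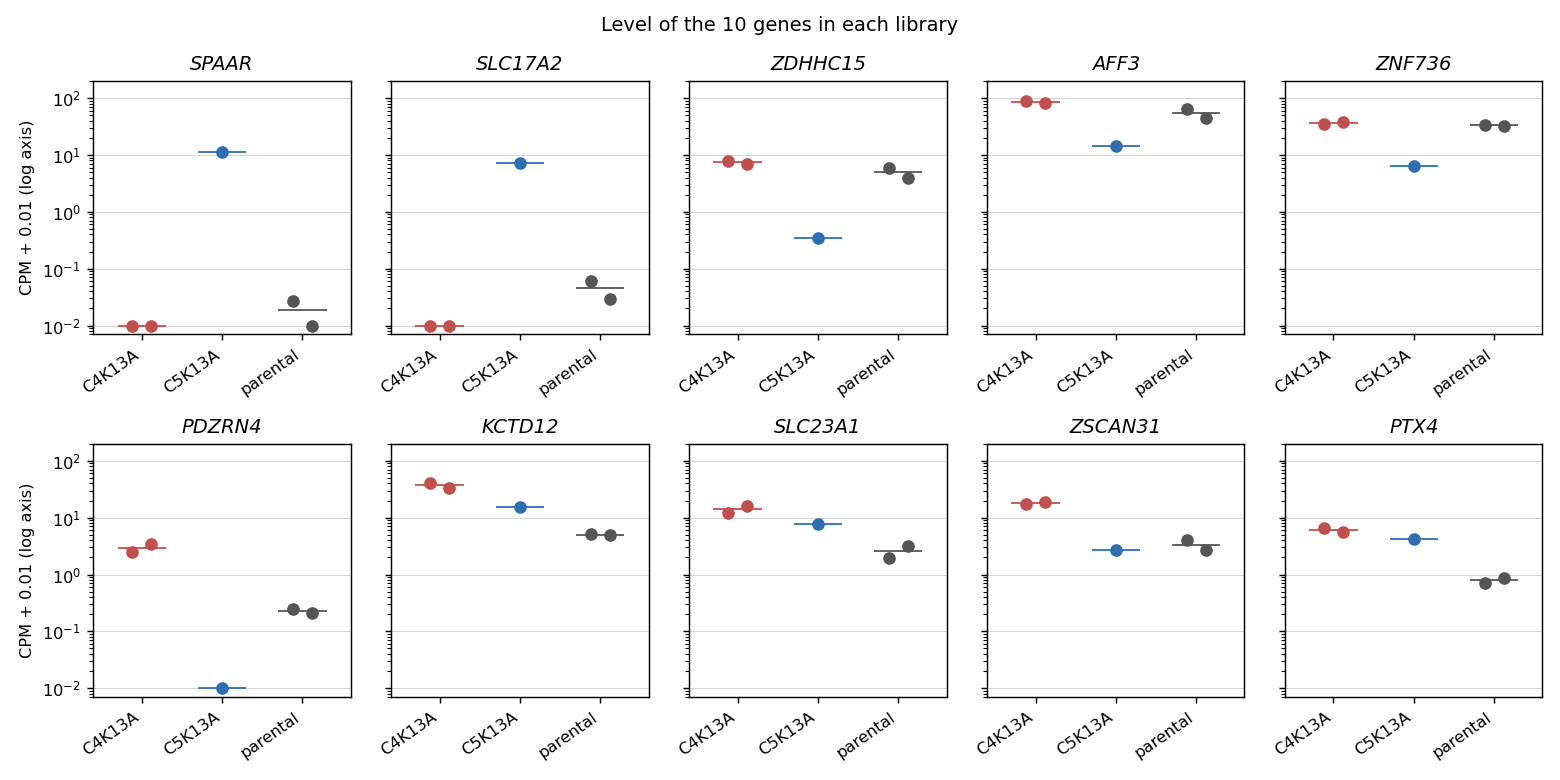
Expression of the 10 genes in each library, as CPM plus an offset of 0.01 on a log axis, 1 point per library for C4K13A, C5K13A and parental cells, with a line at each group's mean. The C5K13A point of SPAAR lies at 11.5 CPM with both C4K13A points at 0, while the C5K13A points of ZDHHC15, AFF3 and ZNF736 lie below all 4 other points.

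SPAAR and SLC17A2 were expressed in C5K13A and close to absent elsewhere. SPAAR (ENSG00000235387, chr9:35909483-35937153, plus strand, GRCh38) had 0 and 0 CPM in C4K13A, 11.5 CPM in C5K13A, and 0.0168 and 0 CPM in parental cells. In reads this was 485 counts in C5K13A against 1 count in both parental libraries together. The ratio of pooled, scaled counts was 1260-fold, with an exact 95% interval of 226 to 50000, and C5K13A was at least 356-fold higher than C4K13A, taking a floor of 3 counts over a group at 0. C5K13A stood alone, and the 4 other libraries did not differ beyond 1 read. These bounds and intervals describe counting error alone, since they use pooled counts and hold no spread between libraries. PCR copies were not marked by molecular identifiers, so the counting error itself may be larger than shown. SLC17A2 (ENSG00000112337, chr6:25912754-25930726, minus strand) had 0 and 0 CPM in C4K13A, 7.26 CPM in C5K13A, and 0.0504 and 0.0197 CPM in parental cells. The counts were 307 in C5K13A against 3 and 1 in parental cells, a fitted log2 difference of 7.56 ± 0.65 (standard error, as below). C5K13A was at least 225-fold higher than C4K13A. The departure of C4K13A from parental rested on those 4 parental reads and was bounded only at 1.13-fold lower.

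ZDHHC15, AFF3 and ZNF736 were lower in C5K13A than in every other library. ZDHHC15 (ENSG00000102383, chrX:75368427-75523502, minus strand) had 7.91 and 7.04 CPM in C4K13A, 0.331 CPM in C5K13A, and 5.9 and 4.0 CPM in parental cells. C5K13A was 14.9-fold below parental (log2 -3.89 ± 0.49), with 14 reads left, and C4K13A lay 0.59 ± 0.30 above it on the log2 scale. The C4K13A and parental ranges did not overlap, but their gap was smaller than the gap within the parental pair. AFF3 (ENSG00000144218, chr2:99545419-100142739, minus strand) kept the highest level of these 3 genes in C5K13A. It had 88.8 and 82.1 CPM in C4K13A, 14.2 CPM in C5K13A, and 65.3 and 44.5 CPM in parental cells. The fitted differences were log2 -1.96 ± 0.30, or 3.88-fold lower, in C5K13A and 0.64 ± 0.22 in C4K13A. ZNF736 (ENSG00000234444, chr7:64307459-64354860, plus strand) had the tightest values outside C5K13A. It had 35 and 37.8 CPM in C4K13A, 6.36 CPM in C5K13A, and 33.9 and 32.3 CPM in parental cells. C5K13A was 5.21-fold below parental (log2 -2.38 ± 0.25), while C4K13A differed by 0.13 ± 0.18. Zinc finger genes of this kind have close copies, and the handling of reads with several alignments is not given in the sources used here, so the ZNF736 counts are uncertain in that respect.

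PDZRN4 (ENSG00000165966, chr12:41188448-41574724, plus strand) separated the clones on either side of parental cells. It had 2.46 and 3.44 CPM in C4K13A, 0 CPM in C5K13A, and 0.235 and 0.197 CPM in parental cells. C4K13A was 13.5-fold above parental (log2 3.75 ± 0.47). The C5K13A library had 0 reads against 14 and 10 in parental cells, a level at least 3.07-fold lower. Against C4K13A, C5K13A was at least 41.1-fold lower. The 3 groups did not overlap, but the parental level was itself low.

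ZSCAN31 (ENSG00000235109, chr6:28324693-28356271, minus strand) was high in C4K13A and near parental in C5K13A. It had 17.3 and 19 CPM in C4K13A, 2.74 CPM in C5K13A, and 4.05 and 2.64 CPM in parental cells. The C5K13A library fell inside the parental range, and C4K13A was 5.41-fold above parental (log2 2.43 ± 0.28). Between clones, C5K13A was 6.6-fold below C4K13A.

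KCTD12, SLC23A1 and PTX4 were highest in C4K13A, intermediate in C5K13A and lowest in parental cells. KCTD12 (ENSG00000178695, chr13:76880166-76886390, minus strand) had 41.1 and 33.2 CPM in C4K13A, 15.5 CPM in C5K13A, and 5.21 and 4.87 CPM in parental cells. The fitted log2 difference from parental was 2.88 ± 0.22 in C4K13A and 1.62 ± 0.24 in C5K13A, or 7.36-fold and 3.07-fold. The 3 groups did not overlap, and the parental pair was close together. SLC23A1 (ENSG00000170482, chr5:139367196-139384553, minus strand) had 12 and 16.1 CPM in C4K13A, 7.64 CPM in C5K13A, and 1.98 and 3.19 CPM in parental cells. Its log2 differences from parental were 2.44 ± 0.32 in C4K13A and 1.56 ± 0.36 in C5K13A. The groups were again apart, and C5K13A lay -0.88 ± 0.38 from C4K13A. PTX4 (ENSG00000251692, chr16:1485886-1488981, minus strand) had the smallest gap between clones. It had 6.5 and 5.6 CPM in C4K13A, 4.23 CPM in C5K13A, and 0.689 and 0.867 CPM in parental cells. It was 7.77-fold above parental in C4K13A and 5.44-fold above in C5K13A, and C5K13A was -0.52 ± 0.38 from C4K13A on the log2 scale.

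Divided by exonic length, the levels in C4K13A ran from AFF3 at 6.71 CPM per kb, through KCTD12 at 5.96, SLC23A1 at 4.38, ZNF736 at 3.86, ZSCAN31 at 3.66 and PTX4 at 3.58, to ZDHHC15 at 1.1 and PDZRN4 at 0.624 CPM per kb. In C5K13A the order was led by SPAAR at 3.94 and SLC17A2 at 2.83 CPM per kb, followed by PTX4 at 2.51, KCTD12 at 2.48 and SLC23A1 at 2.38. In parental cells AFF3 at 4.31 and ZNF736 at 3.52 CPM per kb stood above the rest, which were at or below 0.809 CPM per kb. SPAAR per kb in C5K13A thus lay between the parental levels of ZNF736 and AFF3. All C5K13A levels came from 1 library, so their order, with PTX4, KCTD12 and SLC23A1 close together, has no spread to set it against.

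All 10 genes passed the filter on low counts, SPAAR and SLC17A2 only through the C5K13A library. Genes are called below where edgeR's quasi-likelihood test with Benjamini-Hochberg adjustment over 22743 genes gave an adjusted p under 0.05. The test called 5 of the 10 in C4K13A against parental, beside 0.699% of all genes. They were PDZRN4, KCTD12, SLC23A1, ZSCAN31 and PTX4. In C5K13A against parental it called 3 (SPAAR, SLC17A2 and ZNF736), beside 0.0484% of all genes. In C5K13A against C4K13A it called 6 (SPAAR, SLC17A2, ZDHHC15, AFF3, ZNF736 and PDZRN4), beside 0.066%. These contrasts chose the genes, and SPAAR and SLC17A2 entered the test only through the library in which they are high, so nothing is read from the calls or shares. Without 1 library at a time the test called 5 to 8 of the 10 in C5K13A against parental, 8 of them without parental library 2.

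Over all genes, few met a strict one-clone pattern, defined as at least 8-fold in 1 clone and under 2-fold in the other, with at least 1 CPM in the higher group. In C4K13A 3 genes were higher (0.0132%) and 6 lower (0.0264%), and in C5K13A 3 were higher (0.0132%) and 17 lower (0.0747%). ZDHHC15 was among the 17 and was the single member that met the pattern. The fitted fold is unreliable for genes at a few reads, so genes under 1 CPM in the other clone and in parental cells were also counted as unchanged there, a choice made after the data were seen. The counts were then 8 higher and 6 lower in C4K13A, and 10 higher and 17 lower in C5K13A, with PDZRN4 among the 8 and SPAAR and SLC17A2 among the 10. The other 6 members lay under 8-fold in each clone. The counts under the added rule can include genes that changed in both clones. Among the 10, FREM3 had fitted log2 values of 5.02 in C4K13A and 5.80 in C5K13A, and MAGEC1 of 5.68 and 10.38. PDZRN4, among the 8, also departed in C5K13A. The strict counts rest on single libraries. The number lower in C5K13A was 8 without C4K13A library 1 and 26 without C4K13A library 2, and the number lower in C4K13A was 16 and 20 without the same libraries and 10 without parental library 1. Without parental library 1, 5 genes were higher in C4K13A and 1 in C5K13A, and without C4K13A library 2, 5 were higher in C5K13A. In the scatter of both clones' fold changes, points far below 0 include genes with 0 reads in a clone.

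**Figure D3:**
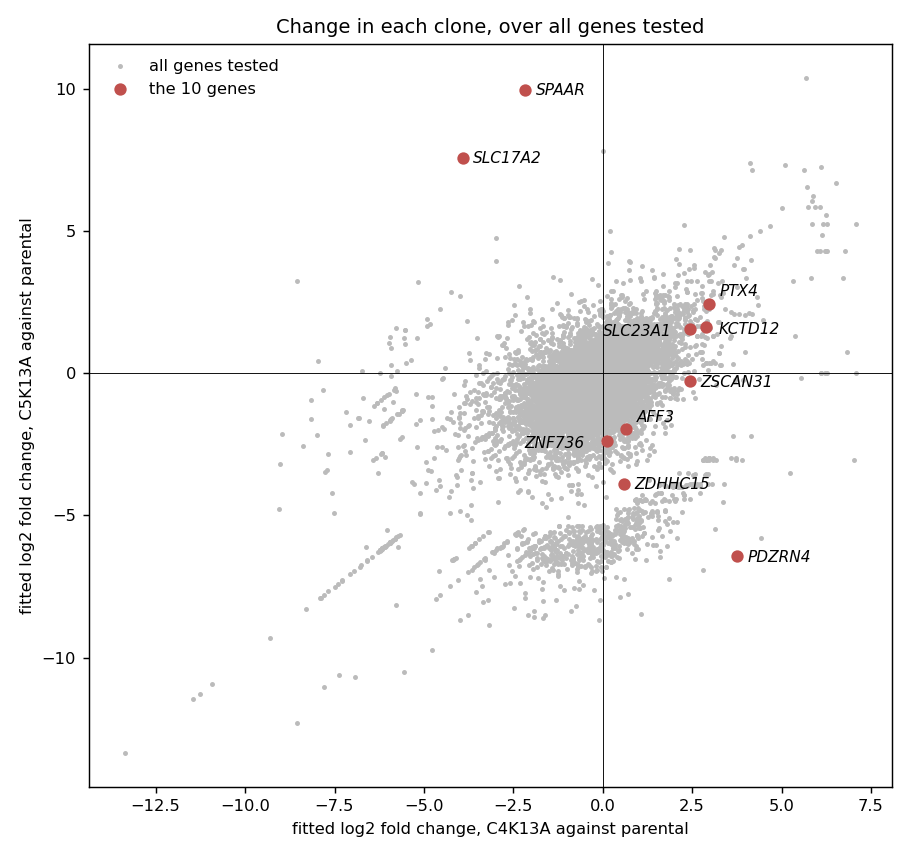
Fitted log2 fold change against parental in C4K13A (horizontal) and in C5K13A (vertical) for 22743 genes in grey and the 10 genes in red. SPAAR and SLC17A2 lie high on the vertical axis, ZDHHC15, AFF3 and ZNF736 below 0 near the vertical line, ZSCAN31 right of 0 near the horizontal line, and KCTD12, SLC23A1 and PTX4 up and to the right. Positions of SPAAR, SLC17A2 and PDZRN4 rest on groups at or near 0 reads, where the fitted value is no bound.

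Genes around the members were examined next, a measure the choice did not use. Within 500 kb either side lay 224 tested genes, from 0 around PDZRN4 to 46 around PTX4. The test called 0 of them in each of the 3 comparisons. At an unadjusted p under 0.05, 22 (9.82%) passed in C4K13A against parental, 13 (5.8%) in C5K13A against parental and 15 (6.7%) in C5K13A against C4K13A. Over all genes the shares were 12.2%, 6.45% and 6.42%. DESeq2 called 4 (2.02%, beside 3.64% of all genes), 1 (0.515%, beside 1.12%) and 3 (1.52%, beside 0.805%) in the same order. The 3 called between clones were NEXMIF and TTC3P1 near ZDHHC15 and AC092667.1 at AFF3, each lower in C5K13A like its member. The median log2 change of the 149 neighbours at or above 1 CPM was 0.05 in C4K13A against parental, 0.08 in C5K13A against parental and -0.03 between clones. Leaving out parental library 2 gave 25 called neighbours of 216 in C4K13A (11.6%, beside 7.59% of all genes) and 11 in C5K13A (5.09%, beside 3.04%).

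Of the 149 neighbours at or above 1 CPM, 2 differed from parental by at least 2-fold in the same direction as their member, in the clone where that member differed most. They were NEXMIF near ZDHHC15 and AC092667.1 at AFF3, described below. The share of all genes with a change of that size was not counted. TRIM38, an ubiquitin ligase 32.1 kb from SLC17A2, had 11.2 and 12 CPM in C4K13A, 12.6 CPM in C5K13A, and 9.66 and 8.79 CPM in parental cells. HRCT1, 2.34 kb from SPAAR, stayed at or below 0.284 CPM in every library. UPRT, 63.8 kb from ZDHHC15, had 16.6 and 18.7 CPM in C4K13A, 13.3 CPM in C5K13A, and 11.2 and 13.7 CPM in parental cells. REV1, a DNA polymerase gene 55.4 kb from AFF3, had 23.2 and 20.4 CPM in C4K13A, 21.7 CPM in C5K13A, and 25.8 and 21.5 CPM in parental cells. Neither gene was lowest in C5K13A by the margin of its neighbour. TTC3P1, a pseudogene 217 kb from ZDHHC15, had 24.1 and 22.3 CPM in C4K13A, 8.35 CPM in C5K13A, and 18 and 13.7 CPM in parental cells, with C5K13A below all other libraries. MAGEE2, 259 kb from ZDHHC15, had 0.839 and 0.349 CPM in C4K13A, 0 CPM in C5K13A, and 0.0672 and 0.276 CPM in parental cells. TRIM60P18, a pseudogene 0.218 kb from ZNF736, had 0.759 and 0.767 CPM in C4K13A, 0.118 CPM in C5K13A, and 0.622 and 0.768 CPM in parental cells. TTC3P1, MAGEE2 and TRIM60P18 each had their lowest value in C5K13A too, and edgeR called none of the 3. MAGEE2 and TRIM60P18 stayed under 1 CPM in every library. ZNF680, 165 kb from ZNF736, had 14.5 and 11.6 CPM in C4K13A, 8.84 CPM in C5K13A, and 11.2 and 9.79 CPM in parental cells. TELO2, 4.36 kb from PTX4, had 94.9 and 83.7 CPM in C4K13A, 87.2 CPM in C5K13A, and 67.1 and 72.8 CPM in parental cells. The clones lay above both parental libraries for TELO2, which was not called. CLCN7, 10.3 kb from PTX4 on the other side, went the opposite way and was not called either. It had 25.1 and 24.1 CPM in C4K13A, 28 CPM in C5K13A, and 58.9 and 32.5 CPM in parental cells.

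Overlapping genes limit some counts, because the strand setting of the counting is not given in the sources used here. SLC23A1 overlaps PAIP2 on the opposite strand, which had 27.8 and 29.6 CPM in C4K13A, 34.2 CPM in C5K13A, and 30.3 and 33.8 CPM in parental cells. ZSCAN31 overlaps ZKSCAN3 on the opposite strand, at 9.31 and 9.69 CPM in C4K13A, 6.64 CPM in C5K13A, and 9.09 and 6.50 CPM in parental cells. Neither partner showed the C4K13A excess of its member. AFF3 overlaps the antisense gene AC092667.1, which had 2.48 and 1.33 CPM in C4K13A, 0.189 CPM in C5K13A, and 1.45 and 0.867 CPM in parental cells. Its C5K13A value was lowest, as for AFF3, with a log2 difference from parental of -2.60 ± 0.74, not called by edgeR. The overlap spans 2586 bases, and whether reads there were assigned by strand is not known. In C5K13A, AC092667.1 had 8 counts and AFF3 599.

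NEXMIF, NPR2 and CA9 drew attention after their values were seen. NEXMIF, a neuronal X-linked gene 443 kb from ZDHHC15, had 8.51 and 8.72 CPM in C4K13A, 0.473 CPM in C5K13A, and 2.57 and 4.41 CPM in parental cells. Its order over the groups was that of ZDHHC15. DESeq2 called it in all 3 comparisons, and edgeR in none, with an adjusted p of 0.0543 for C5K13A against C4K13A. NPR2, a natriuretic peptide receptor 99.8 kb from SPAAR, had 0.0999 and 4.23 CPM in C4K13A, 0 CPM in C5K13A, and 0.336 and 0.276 CPM in parental cells. The C4K13A libraries disagreed, and C5K13A was at 0 where SPAAR was at its highest. CA9, 228 kb from SPAAR, was highest in C5K13A like SPAAR, but under 1 CPM in every library. It had 0.06 and 0 CPM in C4K13A, 0.922 CPM in C5K13A, and 0 and 0.177 CPM in parental cells. Its log2 difference of C5K13A from parental was 3.39 ± 1.57.

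**Figure D4:**
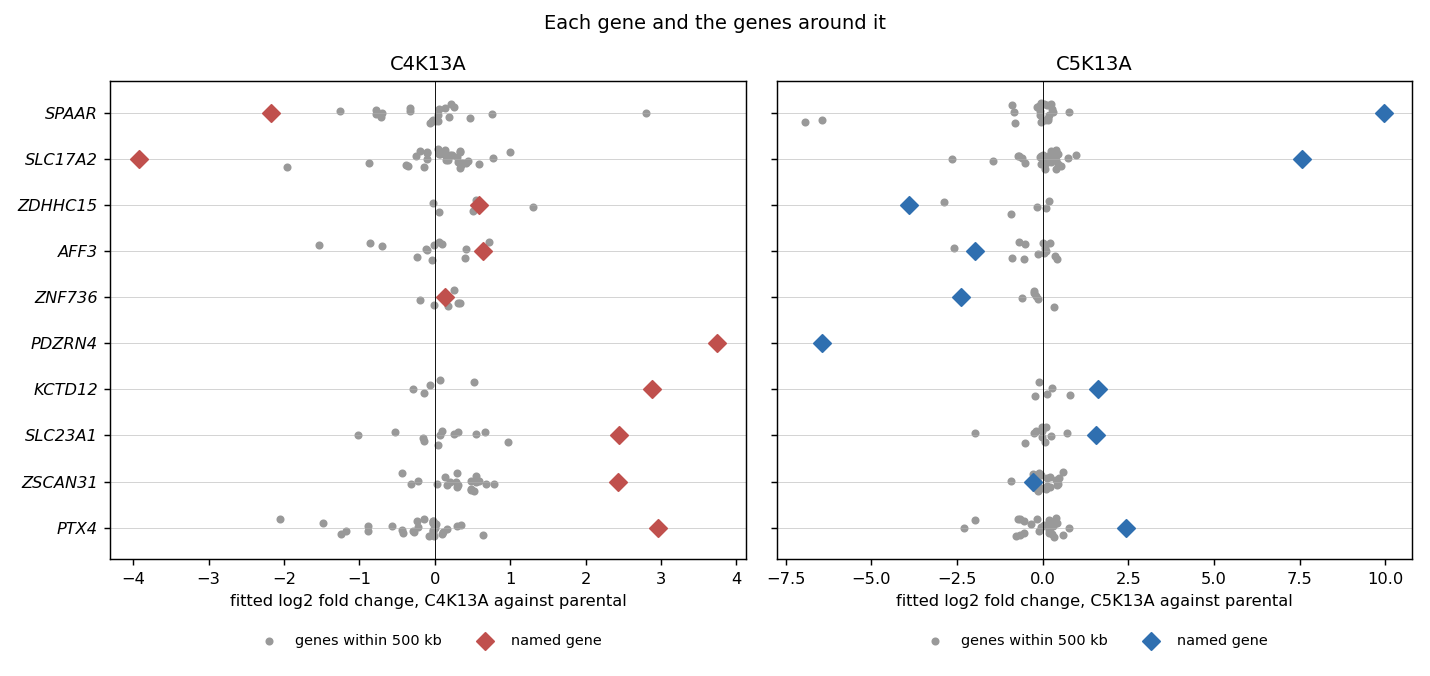
Fitted log2 fold change against parental of each of the 10 genes (diamonds) and of the tested genes at or above 1 CPM within 500 kb of it (grey points), in C4K13A at left and C5K13A at right. Changes of at least 2-fold were seen in 10 of the 149 neighbours in C4K13A and 9 in C5K13A, and PDZRN4 has no tested neighbour. The share of all genes with such a change was not counted, so nothing is read from these counts.

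Relatives and pathway partners of the members were read from 12 lists with 172 tested genes that are not members. The test called 1 of them in C4K13A against parental (0.581%, beside 0.699% of all genes), and 0 in C5K13A against parental and in C5K13A against C4K13A. At an unadjusted p under 0.05 there were 24 (14%), 15 (8.72%) and 10 (5.81%) in that order, and DESeq2 called 9 (5.36%, beside 3.64% of all genes), 2 (1.2%, beside 1.12%) and 1 (0.595%, beside 0.805%). The called gene was SESN2, a leucine sensor upstream of mTORC1. It had 34.9 and 43.5 CPM in C4K13A, 48.1 CPM in C5K13A, and 93.7 and 90.6 CPM in parental cells, a fall of 1.23 on the log2 scale in C4K13A (edgeR adjusted p = 0.0338). That call was lost without C4K13A library 1 (adjusted p = 0.156) and without C4K13A library 2 (0.0655). Without parental library 2 the test called 19 of 171 list genes in C4K13A against parental (11.1%, beside 7.59% of all genes) and 8 in C5K13A against parental (4.68%, beside 3.04%).

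By list, the 39 tested genes of lysosomal amino acid sensing had a median log2 change of -0.06 in C4K13A and 0.04 in C5K13A, against -0.01 and -0.03 over all genes. The 23 vacuolar ATPase subunit genes had medians of -0.08 and 0.12. The 21 other ZDHHC genes had medians of -0.01 and 0.15, and the 12 other genes of the AF4/FMR2 family and the super elongation complex 0.04 and 0.00. Both families thus sat near the median of all genes. The 13 genes of the 6p22 SCAN and KRAB zinc finger list, the region of ZSCAN31, included PGBD1, which is no zinc finger gene. They had a median of 0.31 in C4K13A and 0.03 in C5K13A, ranging from 0.03 to 0.79 in C4K13A. The 8 genes of the 7q11 zinc finger list, the region of ZNF736, included ERV3-1, which is no zinc finger gene. They had a median of 0.13 in C4K13A and of -0.22 in C5K13A, ranging from -2.03 to 0.25 in C5K13A. The 31 genes of gene silencing, which include DNA methyltransferases and the TRIM28 corepressor recruited by KRAB zinc fingers, had medians of 0.08 and 0.06. The lists of SLC17 transporters (3 tested genes), LNX and PDZRN genes (3), GABA-B receptor genes (2), ascorbate handling (13) and pentraxins (4) also held 0 called genes.

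Single relatives give the levels behind these lists. SLC23A2, the broadly expressed ascorbate transporter, was picked out after its values were seen. It had 7.75 and 3.98 CPM in C4K13A, 19 CPM in C5K13A, and 20.6 and 18.4 CPM in parental cells (edgeR adjusted p = 0.0625 for C4K13A). It was low where SLC23A1 was at its highest. AFF4, the main scaffold of the super elongation complex, had 170 and 168 CPM in C4K13A, 141 CPM in C5K13A, and 218 and 164 CPM in parental cells. PDZRN3, the closest relative of PDZRN4, had 39.9 and 30.1 CPM in C4K13A, 39.1 CPM in C5K13A, and 65.6 and 48.4 CPM in parental cells. TRIM28 had 763 and 753 CPM in C4K13A, 705 CPM in C5K13A, and 683 and 748 CPM in parental cells. AFF4, PDZRN3 and TRIM28 stayed at 30.1 CPM or more in every library. PDZRN3 was lower in every clone library than in both parental libraries, and was not called. Its log2 differences from parental were -0.70 ± 0.22 in C4K13A and -0.55 ± 0.28 in C5K13A.

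The genes most like each member were ranked among 11970 protein-coding genes by the root mean square difference of centred log2 CPM over the 5 libraries, a description with no test. SPAAR and SLC17A2 were each other's nearest gene, at 0.48. KCTD12 and PTX4 were each other's nearest, at 0.33, and FAM3B was the nearest to SLC23A1, at 0.20. For ZNF736 the nearest was ZNF66, at 0.12, with 2.96 and 3.3 CPM in C4K13A, 0.426 CPM in C5K13A, and 2.86 and 2.36 CPM in parental cells. The next for ZNF736, and second for AFF3, was ZC4H2, at 0.17 and 0.19, and BHLHE41 was nearest to AFF3, at 0.18. ZNF677 and ZNF415 were nearest to ZDHHC15, at 0.37 and 0.38. For ZSCAN31, PLEKHS1 was among the nearest, at 0.48, with 17.2 and 11.4 CPM in C4K13A, 3.74 CPM in C5K13A, and 4.44 and 1.56 CPM in parental cells. PDZRN4 had no gene closer than ZNF415, at 1.03.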

How the data were processed

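The deposited table holds raw read counts, as whole numbers, for 58812 Ensembl IDs in 5 libraries. Per the labels' protocols, RNA was column-purified, DNase-treated and depleted of ribosomal RNA. Per the submitters' processing notes, the tools included bcl2fastq, Subread's featureCounts 1.4.6-p5 and STAR 2.5. The sources used here do not give the genome build, the annotation, the strand setting or the handling of multimapping reads. Symbols and GRCh38 coordinates came from GENCODE v29, which held 55297 of the IDs, and promoters from RefSeq (GRCh38.p14).

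Groups came from the titles. edgeR 4.0.16 in R 4.3.3 (filterByExpr, TMM, glmQLFit, glmQLFTest) fitted 3 groups with 2 residual degrees of freedom over 22743 genes. The lone C5K13A library was assumed to vary like the others. Fold changes are fitted log2 values, and their standard error is the change divided by the root of F. No label says that replicates were grown as separate cultures, and p-values then reflect a spread among libraries that may be technical only. Tests were checked on simulated counts, where more than the nominal share of calls was false, so adjusted p-values near the threshold are less firm than they read. No pair of libraries was a duplicate by a chi-square test of counts.

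The 10 genes and all lists were chosen with earlier results of these data known. Named genes are the members, HOXB13, called or highest list genes, nearest neighbours and most alike genes, some of which are not reported here. NEXMIF, NPR2, CA9, TTC3P1, TRIM60P18, overlapping genes and the genes under other observations were chosen after their values were seen. Alternatives were RLE factors, no filter, DESeq2 1.42.0, leaving out ribosomal, small and mitochondrial RNA genes, a replicate block, other windows and folds, and each library left out.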

Additional observations from a re-analysis of the deposited data

Results flagged for a closer look

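Between clones, SLC17A2, ZDHHC15, AFF3, ZNF736 and PDZRN4 had every C4K13A library and the C5K13A library on opposite sides of the parental libraries. The share of all genes with this order was not counted, so nothing is read from how many members had it. The difference was not tested apart from the contrast that chose the genes. SLC17A2 was at least 225-fold higher in C5K13A than in C4K13A, where its departure from parental rested on 4 parental reads. ZDHHC15 was -4.49, AFF3 -2.59 and ZNF736 -2.51 on the log2 scale in C5K13A against C4K13A, and PDZRN4 was at least 41.1-fold lower. For ZDHHC15, AFF3 and ZNF736 the C4K13A side was a change of less than 2-fold, at log2 0.13 ± 0.18 for ZNF736.

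UGT2B17, a steroid glucuronidation gene with near-identical copies whose counts are uncertain, was the gene second most like SLC17A2. It had 0.04 and 0.0465 CPM in C4K13A, 6.17 CPM in C5K13A, and 0.723 and 1.00 CPM in parental cells. C5K13A exceeded both C4K13A libraries, by 7.08 on the log2 scale. The gene was picked for its likeness to SLC17A2 over the same 5 libraries, so this difference is a description and no support for the pattern.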

How the results depend on the processing

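The 10 genes' fold changes moved by no more than the spread between replicates in 234 of 256 alternatives, and 22 moved further. SPAAR in C5K13A against parental ranged from 9.21 to 12.06 on the log2 scale, since 1 parental read sets it, and ZSCAN31 in C5K13A from -0.57 to 0.05. Counts of called genes depended on the processing, and the cause was not tested. In C4K13A against parental 159 genes were called, with 1346 without the filter and 728 by DESeq2. In C5K13A against parental 11 were called, with 578 without the filter, 216 by DESeq2 and 7 without ribosomal, small and mitochondrial RNA genes. Between clones 15 were called, with 423 without the filter and 161 by DESeq2. Leaving out 1 library gave 130 to 1667, 41 to 668 and 51 to 155 in that order, the highest without parental library 2 in the first and second and without parental library 1 in the third.

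Among neighbours, 0 were called in each comparison, against 8, 5 and 8 without the filter, 4, 1 and 3 by DESeq2, and 1 with RLE factors between clones. Leaving out 1 library gave 0 to 25, 1 to 11 and 1 to 2. Windows of 250 and 1000 kb gave 0. Among list genes, 1, 0 and 0 were called, against 13, 5 and 2 without the filter and 9, 2 and 1 by DESeq2, with 0 to 19, 0 to 8 and 0 to 1 on leaving out 1 library.

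The replicate block, on the 4 numbered libraries, called 885 genes in C4K13A against parental, 5 neighbours and 10 list genes, against 130 genes in the same libraries without the block. Deviations of same-numbered libraries correlated at 0.154, a single value with 2 libraries a group. Mitochondrial ribosomal RNA was lower in library 1 than in library 2 of both groups. No label says what a number marks, and whether the numbers pair the libraries cannot be told from so few. Where 1 library remained in a group, it was assumed to vary like the others. Depth limits PDZRN4 and SLC17A2 at a few reads in parental cells.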

Other observations

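Other genes showed the strict one-clone pattern and are given as values only. EPHA3, an ephrin receptor, had 1.84 and 2.67 CPM in C4K13A, 79.7 CPM in C5K13A, and 65.3 and 182 CPM in parental cells. PRAC1, a gene beside HOXB13, had 0.44 and 0.139 CPM in C4K13A, 6.71 CPM in C5K13A, and 13.3 and 8.98 CPM in parental cells. GJB1, a gap junction gene, had 12.9 and 8.42 CPM in C4K13A, 0.875 CPM in C5K13A, and 1.93 and 0.394 CPM in parental cells. KRT80, an epithelial keratin, had 1.5 and 4.46 CPM in C4K13A, 21.4 CPM in C5K13A, and 1.53 and 3.07 CPM in parental cells. Of the 17 genes lower in C5K13A, a number that ran from 8 to 26 when a library was left out, 4 were ZNF genes on chromosome 19 (ZNF730, ZNF737, ZNF677 and ZNF793), picked out after the list was seen. ZNF genes of that chromosome made up 225 of the 15471 tested genes at or above 1 CPM (1.45%), and no test was made. ZNF793 had 5.9 and 3.16 CPM in C4K13A, 0.638 CPM in C5K13A, and 6.59 and 3.68 CPM in parental cells.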
